A study of Mus musculus with 6 samples.

Results

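Lrp2, Folr1, Slc34a3 and Pdzk1 are 4 genes best known from the apical membrane of absorptive epithelia, and here they were measured in the aorta. They were chosen because the study's list of differentially expressed mRNAs pairs each of them with a probe, so they are 4 of the 278 genes that the list names, and 4 of the 91188 distinct probes on the array. That list was made from the same diet comparison on the same 6 arrays. The diet differences of the 4 genes are therefore given as a description, with no test.

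Each array held RNA of 1 aorta from a male mouse, homozygous apoE(-/-) on the C57BL/6 background. Mice without apolipoprotein E clear lipoprotein remnants poorly and form atherosclerotic plaques without any further manipulation. The normal diet group (3 arrays) ate normal chow for 8 weeks, and the high-fat diet group (3 arrays) ate for 8 weeks a chow with 20% fat and 2.5% cholesterol. Every mouse carried the deletion, so the comparison is between diets within apoE(-/-) animals, and it contains no wild-type aorta. The array mice were drawn at random from a larger group on each diet, and their age was not given in the sources used here. The whole vessel was used, so fewer cells of a type and less RNA per cell cannot be told apart.

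Megalin, the product of Lrp2, is a very large endocytic receptor. In the brush border of the kidney proximal tubule it takes up filtered vitamin carriers, hormones and apolipoproteins. Folr1 encodes a folate receptor that is anchored to the outer face of the membrane, binds folate tightly and is carried into the cell by endocytosis. Slc34a3 encodes NaPi-IIc, a sodium-dependent phosphate cotransporter of the tubular brush border. Pdzk1 is a scaffold with several PDZ domains that holds transporters, among them sodium-phosphate cotransporters, at the apical membrane, and in the liver it keeps the high density lipoprotein receptor SR-BI at the cell surface.

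Each gene was read by 1 probe of 60 bases, spotted once on each array, so that an array gives 1 intensity for a gene. A stretch of each probe, bases 25 to 54 counted from its 5′ end, is shown to identify the sequence that was read and to place the marked letters. The capitals mark AATAAA, the letters of the common polyadenylation signal.
Lrp2: ggagtaactataaattccAATAAAtgatga
Folr1: taggtgggttgtattttacccagtaggagt
Slc34a3: acggatgttttagtctcttatatcctctcc
Pdzk1: agtAATAAAgggaggcttccaggaaatata

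AATAAA was present at bases 43 to 48 of the Lrp2 probe and at bases 28 to 33 of the Pdzk1 probe, and 10.9% of all probes on the array hold these letters. Its reverse complement, TTTATT, was in none of the 4 probes and in 3.97% of all. No other probe of the array shared 20 consecutive bases with any of the 4 on either strand, and the longest shared run was 15 bases for Lrp2 and 14 for the others. The probes held between 21 (Lrp2) and 30 (Folr1) G or C bases of 60. Levels are compared below only within a probe, since probes of different composition are not on 1 scale.

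In the RefSeq annotation of GRCm38.p6, Lrp2 lies at chr2:69424335-69586029, Slc34a3 at chr2:25228897-25234270, Pdzk1 at chr3:96829456-96870926 and Folr1 at chr7:101858331-101870788. The scanner files gave no mapped position for these probes, and the exon that each one reads was not analysed here.

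The scanner output placed the arrays on 2 different slides, called slide 1 and slide 2 here. Slide 1 held normal diet replicates 1 and 3, and slide 2 held normal diet replicate 2 with the 3 high-fat diet arrays. The slides differed in background. The 600 negative control spots had a median of 13.8 and 16.1 intensity units over the local background on the slide 1 arrays, and between -1.43 and -0.61 on the slide 2 arrays. The share of probes detected was 62.6% to 64.4% on slide 1 and 72.4% to 76.0% on slide 2. Detected means that at least 0.5 of the spots of the probe were positive, well above background and free of outlier marks. Diet and slide cannot be told apart between slide 1 and the high-fat diet arrays, and the only normal diet array that shares a slide with the high-fat diet arrays is replicate 2.

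Detection on every array of one diet or the other was asked of a probe, and 64467 probes met this. Of these, limma put 1374 (2.13%) above and 535 (0.83%) below the normal diet in the high-fat diet group at an unadjusted p of at most 0.05 and a difference of 2-fold or more. A total of 8669 probes had an unadjusted p under 0.05, and 1 had a Benjamini-Hochberg adjusted p under 0.05, which was none of the 4 genes. Leaving out normal diet replicate 1 gave 722 higher probes, leaving out normal diet replicate 2 gave 4273, and leaving out high-fat diet replicate 3 gave 910. Lower probes numbered 1604 with normal diet replicate 2 left out, 344 with replicate 3 left out, and 816 with high-fat diet replicate 1 left out. The list that supplied the 4 genes applied the same 2 limits, so the shares stand here as the background of the array and nothing is read from the 4 genes against them.

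Lrp2 and Folr1 were higher on the high-fat diet, and Slc34a3 and Pdzk1 were lower. The normalized means of Lrp2 differed 10.2-fold, but its spot was well above background on only 1 of 3 normal diet arrays. Before normalization the mean signals differed 2.91-fold over the local background and 5.20-fold above the negative control spots. Slc34a3 was 2.46-fold lower. Folr1, 2.02-fold higher, and Pdzk1, 2.01-fold lower, lay just inside the 2-fold limit, and no gene just outside it can be named from the list. In each of the 4 genes the 3 high-fat diet arrays lay entirely on one side of the 3 normal diet arrays. Among all 64467 probes, 8.87% had all high-fat diet arrays above all normal diet arrays and 10.4% had them all below.

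**Figure D1:**
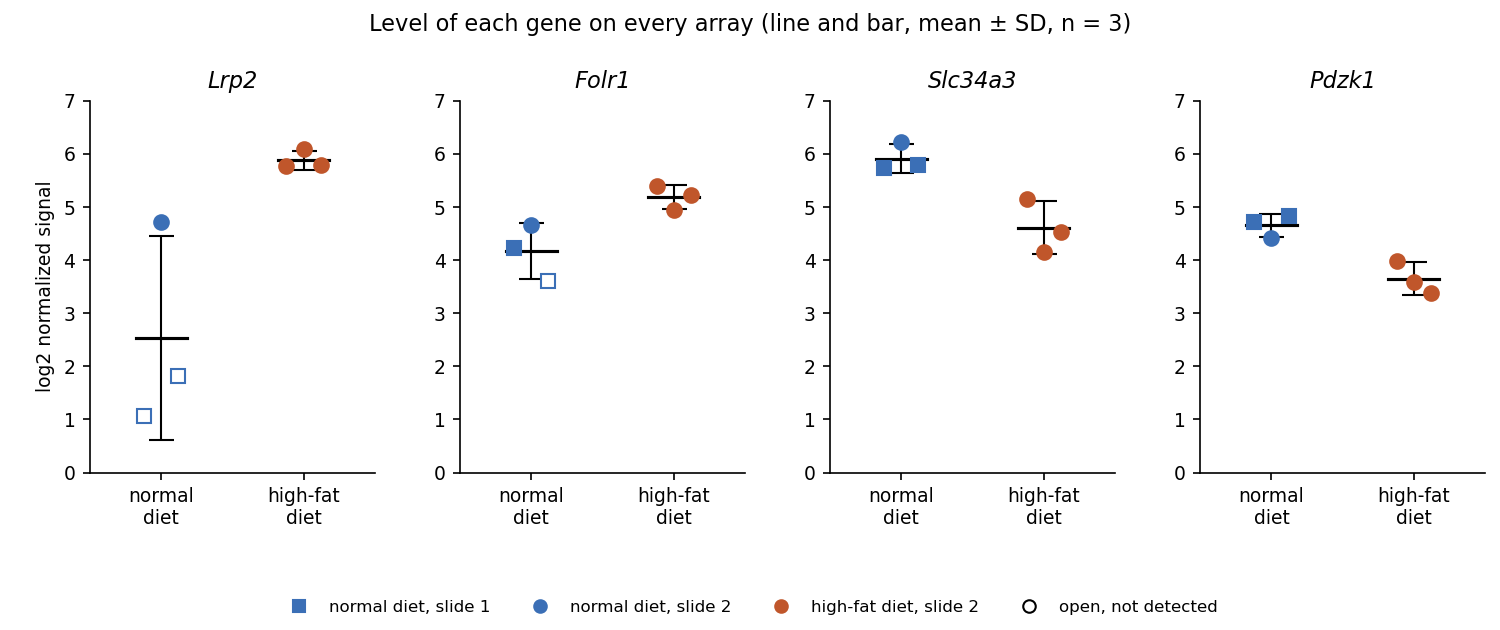
Log2 quantile-normalized signal (vertical axis) of Lrp2, Folr1, Slc34a3 and Pdzk1 on each of the 6 arrays, with normal diet in blue, high-fat diet in orange, squares for slide 1, circles for slide 2, and open symbols where the probe was not detected. Horizontal lines are means and bars are 1 SD (n = 3). In Lrp2 the normal diet array on slide 2 stands at 4.71, far above the normal diet arrays of slide 1 at 1.07 and 1.82.

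Lrp2, the endocytic receptor, had log2 normalized levels of 1.07, 4.71 and 1.82 on normal diet arrays 1, 2 and 3. On high-fat diet arrays 1, 2 and 3 the levels were 5.76, 6.08 and 5.79. The high-fat diet arrays were high and close together, and the normal diet arrays split into 1 intermediate and 2 low values. The normal diet mean was 2.54 ± 1.92 (SD, n = 3) and the high-fat diet mean 5.88 ± 0.18 (SD, n = 3), which differ by 3.34 (SE 0.85). In this SE, limma draws the variance of the probe toward that of all probes, and it is smaller than the SDs alone would give. In all 9 pairs of a high-fat with a normal diet array the high-fat diet array was higher by at least 2-fold, and the smallest difference was 1.05 on the log2 scale.

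The Lrp2 spot was well above background on all 3 high-fat diet arrays and on 1 of 3 normal diet arrays, replicate 2. The probe therefore entered the set of kept probes through the high-fat diet arrays alone. In the processed intensity of the scanner output, before normalization, it read 2.61 on normal diet array 1 with a scanner error of 2.63. It read 3.87 with an error of 3.12 on array 3, and 27.2 with an error of 3.34 on array 2. On these slide 1 arrays the Lrp2 spot was close to the median of the negative control spots, which read 2.58 on array 1 and 3.07 on array 3. The high-fat diet arrays read 51.5 (error 5.46), 87.8 (error 8.99) and 58.2 (error 6.10), so their signal was 9.44 to 9.76 times its error.

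The Lrp2 difference was smaller within slide 2 than over all arrays. Within slide 2 the high-fat diet mean was 1.17 (SE 0.32, with slide as a block in the fit) above the normal diet array, a 2.24-fold difference. In this fit the lone normal diet array is assumed to vary like the other arrays. The difference over all arrays, 3.34, rests in part on the slide 1 arrays, where the spot was not well above background, and its size is uncertain for that reason. Of all kept probes, 2.1% were at least 2-fold higher and 0.771% at least 2-fold lower within slide 2. Lrp2 was not alone in being undetected on both slide 1 arrays and detected on all 4 arrays of slide 2, since 4751 kept probes (7.37%) had that pattern. The median of these probes was 1.08 for normal diet slide 2 minus slide 1, and -0.13 for the diet difference within slide 2. Lrp2, chosen for its diet difference, had larger values, 3.27 and 1.17, of which the first rests on background values.

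Folr1, the folate receptor, had log2 normalized levels of 4.23, 4.67 and 3.62 on normal diet arrays 1, 2 and 3. The high-fat diet arrays gave 5.40, 4.95 and 5.22. The diets did not overlap, but the lowest high-fat diet array was only 0.28 above the highest normal diet array, and 4 of the 9 pairs differed by 2-fold or more. The means were 4.17 ± 0.53 and 5.19 ± 0.23 (SD, n = 3), a difference of 1.02 (SE 0.29).

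The Folr1 spot was well above background on 2 of 3 normal diet arrays, not on replicate 3, and on all 3 high-fat diet arrays, so it too was kept through the high-fat diet arrays. Its processed intensity was 15.6, 26.3 and 11.2 on the normal diet arrays. It was 40.3, 40.0 and 39.3 on the high-fat diet arrays, which were nearly equal, with scanner errors of 4.37 to 4.54. Within slide 2 the difference was 0.52 (SE 0.31), or 1.44-fold, and the normal diet array of slide 2 was 0.74 above those of slide 1. The diet difference of Folr1 within slide 2 was thus under 2-fold.

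Slc34a3, the phosphate cotransporter, had log2 normalized levels of 5.73, 6.22 and 5.78 on the normal diet arrays. On the high-fat diet arrays they were 5.14, 4.16 and 4.53. Every high-fat diet array was below every normal diet array, with a gap of 0.59, and high-fat diet array 1 was the closest to the normal diet. The means were 5.91 ± 0.27 and 4.61 ± 0.50 (SD, n = 3), a difference of -1.30 (SE 0.29), and 7 of the 9 pairs differed by at least 2-fold.

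The Slc34a3 spot was well above background on all 6 arrays. Its processed intensity was 45.5, 77.7 and 47.9 on the normal diet arrays and, with the high-fat diet, 33.8, 23.2 and 24.6. The highest of these values came from normal diet replicate 2, on the slide of the high-fat diet arrays. The difference was larger within slide 2, at -1.61 (SE 0.37) or 3.06-fold, than against slide 1, at -1.14. In this gene the slide difference of the normal diet arrays, 0.47, ran opposite to the diet difference.

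Pdzk1, the scaffold, had log2 normalized levels of 4.72, 4.41 and 4.83 on the normal diet arrays. The high-fat diet arrays gave 3.98, 3.58 and 3.38. The diets did not overlap, with a gap of 0.43, and 5 of the 9 pairs differed by at least 2-fold. The means were 4.65 ± 0.22 and 3.65 ± 0.31 (SD, n = 3), a difference of -1.01 (SE 0.22).

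The Pdzk1 spot was well above background on all 6 arrays, although it was a weak spot throughout. Its processed intensity was 22.1, 21.8 and 24.9 on the normal diet arrays and, with the high-fat diet, 15.1, 15.5 and 11.1, with scanner errors of 1.89 to 3.77. In this processed intensity the 3 normal diet arrays were nearly equal across the 2 slides. Within slide 2 the log2 difference was -0.76 (SE 0.27), or 1.69-fold, and the normal diet array of slide 2 differed from those of slide 1 by -0.37.

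**Figure D2:**
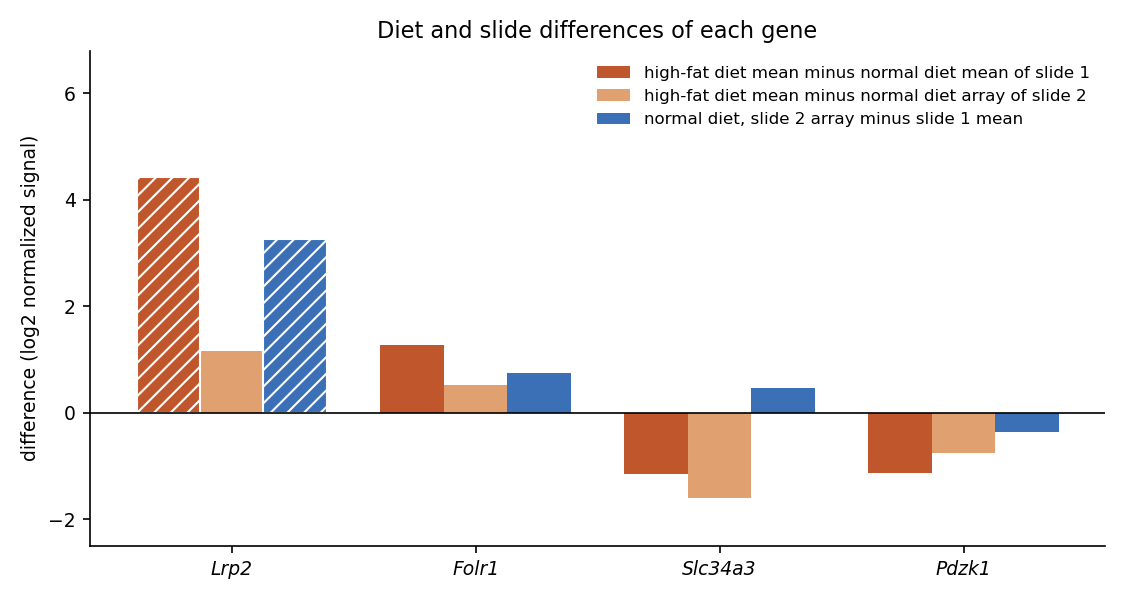
Differences of log2 normalized signal (vertical axis) for each gene, as the high-fat diet mean minus the normal diet mean of slide 1 (dark orange), the high-fat diet mean minus the normal diet array of slide 2 (light orange), and the normal diet array of slide 2 minus the normal diet mean of slide 1 (blue). Hatched bars rest on slide 1 arrays on which Lrp2 was not well above background, and their height is no measured size. The bars of Folr1 that use slide 1 rest in part on normal diet replicate 3, where Folr1 was not well above background. The diet bar of Lrp2 within slide 2 is 1.17, and for Slc34a3 the diet bar within slide 2, -1.61, is the longer of its diet bars.

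The background subtraction was examined apart from the diet, because the slides differed in it. With the plain mean of each spot minus its local background, Lrp2 gave 17.0, 24.9 and 23.7 on the normal diet arrays and, with the high-fat diet, 51.2, 85.0 and 54.8. On this measure the normal diet arrays of both slides were close, and the means of the diets differed 2.91-fold. The negative control spots of the same arrays read 13.8 and 16.1 on slide 1, so Lrp2 was only 3.26 and 7.67 units above them there, against 26.3 on normal diet array 2 and 51.8 to 85.9 on the high-fat diet arrays, and the means above the negative control spots differed 5.20-fold. The normal diet arrays thus lay close together or far apart in Lrp2 depending on the background that was subtracted, and which measure is nearer to the amount of transcript was not tested.

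In the other genes the diets stayed apart on this measure. Compared with the processed intensity, the order of the arrays within a diet changed in Folr1 but not in Slc34a3 or Pdzk1. Folr1 gave 28.8, 25.2 and 29.2 on the normal diet and 38.5, 36.5 and 34.8 on the high-fat diet, a 1.32-fold difference of means. Slc34a3 gave 57.7, 73.9 and 63.7 against 34.4, 23.2 and 25.2, and was 2.36-fold lower on the high-fat diet. Pdzk1 gave 39.8, 22.1 and 47.8 against 15.8, 17.1 and 13.0, and was 2.39-fold lower. In Pdzk1 it was normal diet replicate 2, with the low background of slide 2, that stood nearest to the high-fat diet. Above the negative control spots the differences were 2.05-fold for Folr1, in which normal diet replicate 2, at 26.7, was then the highest of the normal diet arrays, 1.95-fold for Slc34a3 and 1.67-fold for Pdzk1. Subtracting the control spots thus enlarged the difference of the higher genes and shrank that of the lower ones. None of the 4 genes overlapped between the diets on either measure, and no spot of the 4 stood more than 85.9 units above the negative control spots of its array.

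**Figure D3:**
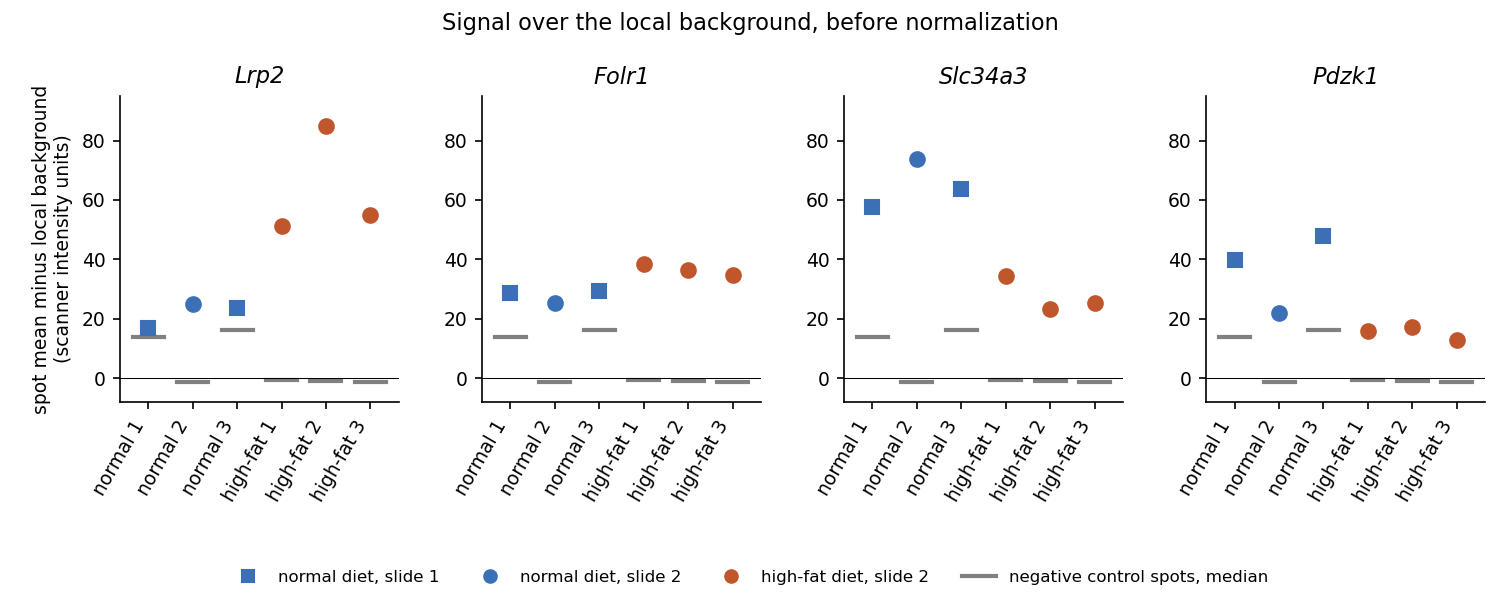
Mean spot intensity minus the local background in scanner units (vertical axis), before detrending and normalization, for each gene on each array, with the median of the negative control spots of the same array as a grey line. The grey lines are at 13.8 and 16.1 on the slide 1 arrays (squares) and near 0 on the slide 2 arrays (circles), and Lrp2 on normal diet array 1 sits 3.26 units above its line.

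The 4 genes did not move as 1 group. The receptors Lrp2 and Folr1 were higher while the transporter and the scaffold were lower, and their choice for a diet difference alone gives correlations between them, so the following values are a description over 6 arrays that share 2 slides. Across all arrays Pearson's r was 0.88 between Lrp2 and Folr1 (Spearman's rho 0.71) and 0.87 between Slc34a3 and Pdzk1 (rho 0.77). Between the pairs it was -0.88 for Lrp2 with Pdzk1 and -0.58 for Folr1 with Slc34a3. With the mean of each diet removed, r was 0.59 for Lrp2 with Folr1 and 0.28 for Slc34a3 with Pdzk1, and for the pairs with opposite diet differences it was 0.67 (Folr1 with Slc34a3), 0.41 (Lrp2 with Slc34a3), -0.31 (Folr1 with Pdzk1) and -0.54 (Lrp2 with Pdzk1). With the mean of each slide removed instead, r was 0.18 for Lrp2 with Folr1 and 0.93 for Slc34a3 with Pdzk1, and between -0.84 and -0.39 for the other pairs. The values with slide means removed still hold the diet difference within slide 2, for which the genes were chosen, and the Lrp2 values of slide 1 were not well above background.

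**Figure D4:**
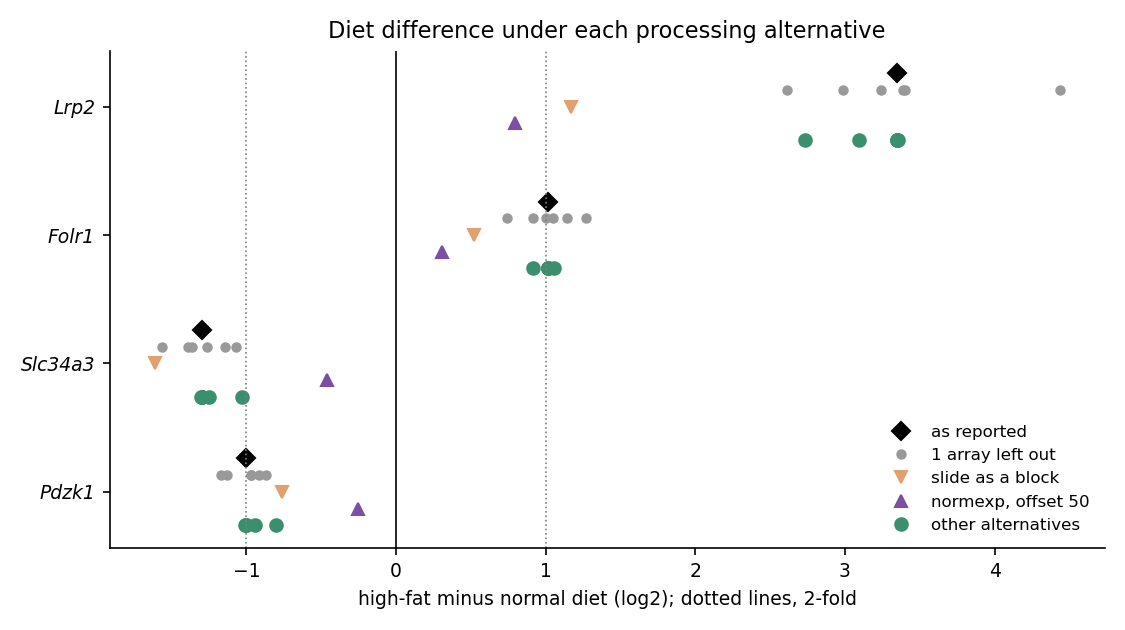
High-fat minus normal diet difference on the log2 scale (horizontal axis) of each gene as reported (diamonds), with 1 array left out (grey), with the slide as a block (triangles pointing down), with a background correction by normexp and an offset of 50 (triangles pointing up) and under the other alternatives (green), with dotted lines at 2-fold. No symbol crosses 0, the block moves Lrp2 from 3.34 to 1.17, and normexp moves it to 0.80.

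The sign of each difference was the same in all 14 alternatives run for each gene, and the size was not. Much of this was fixed beforehand, since the diets did not overlap in these genes. Leaving out an array or blocking the slide could not turn a sign, and blocking the replicate number leaves the difference as it is. Other spot summaries had hardly anything to change, since each gene had a single spot per array without outlier marks. The difference reached 2-fold in 13 of 14 alternatives for Lrp2 and for Slc34a3, in 9 of 14 for Folr1 and in 6 of 14 for Pdzk1. With an array left out, Lrp2 ranged from 2.61 without normal diet replicate 1 to 4.43 without normal diet replicate 2, and it was 2.73 (log2) with the local background subtracted and the values then quantile normalized, unlike the 2.91-fold difference above, which was not normalized. Folr1 was under 2-fold, at 0.74, without normal diet replicate 3, the array on which it was not detected. Pdzk1 was -0.87 without high-fat diet replicate 3.

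Sequence before a transcription start was read for the 2 genes that were lower together. RefSeq windows of 300 bases (GRCm38.p6, 250 before a start and 50 after it) were at hand for 3 of the 4 genes, and AGGTCA, the half-site that many nuclear receptors such as PPAR and RXR bind, was searched with its reverse complement TGACCT. The 250 bases before the start are shown, with these letters in capitals, for Pdzk1 (chr3:96829815-96830064, plus strand) and for Slc34a3 (chr2:25234235-25234484, minus strand), written in the direction of transcription. Both starts lie inside the annotated genes, so the Pdzk1 stretch is wholly within its gene and the marked letters of Slc34a3 lie within its gene as well.
Pdzk1: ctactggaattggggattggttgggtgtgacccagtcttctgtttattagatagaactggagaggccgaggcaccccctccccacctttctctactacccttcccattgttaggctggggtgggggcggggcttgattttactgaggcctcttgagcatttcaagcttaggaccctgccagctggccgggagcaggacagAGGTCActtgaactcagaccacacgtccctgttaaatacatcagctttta
Slc34a3: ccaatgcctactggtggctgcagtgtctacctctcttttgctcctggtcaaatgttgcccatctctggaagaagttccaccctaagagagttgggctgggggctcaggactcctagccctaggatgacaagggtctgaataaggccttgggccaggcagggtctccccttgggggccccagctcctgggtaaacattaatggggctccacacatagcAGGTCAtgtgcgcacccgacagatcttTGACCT

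The Pdzk1 window held AGGTCA once, and the Slc34a3 window held it once on each strand. The other Pdzk1 window (chr3:96831921-96832220) and the Lrp2 window (chr2:69585980-69586279) held neither. Among all 32851 windows, 16.3% held at least 1 of the 2 forms, so these matches are a description of the letters and not of bound sites.

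Other genes of the apical membrane were read from a list of 43, of which 9 had a probe that the study's list names, while 34 could not be looked up. All 9 were picked by the study on this same contrast, so their count has no independent weight, and they too went both ways, 4 higher and 5 lower. Of the higher ones, the zinc transporter Slc39a4 differed by 1.67 (SE 0.44) and the purinergic receptor P2ry1 by 1.34 (SE 0.32). P2ry1 was well above background on 1 of 3 normal diet arrays, replicate 2, so the size of its difference over all arrays is uncertain. Pigr, which carries IgA across epithelia, differed by 1.24 (SE 0.32). Gp2, a glycoprotein of secretory and intestinal cells, did not rise well above background with the normal diet, so the size of its difference is uncertain. With lower normal diet values raised to the lowest value well above background, the high-fat diet level was 1.80-fold higher over all arrays. As measured, it was 1.47-fold higher within slide 2.

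Of the lower ones, Shank2, a scaffold with a PDZ domain like Pdzk1, differed by -1.63 (SE 0.35). Rab17, a small GTPase of transcytosis, differed by -1.33 (SE 0.20), Anxa13, an annexin of the intestinal brush border, by -1.33 (SE 0.37), Ggt1, the gamma-glutamyl transferase of the tubular brush border, by -1.23 (SE 0.35), and the sialomucin Podxl by -1.01 (SE 0.25). Within slide 2, Slc39a4 differed by 0.57 and Pigr by 0.67, well under their values over all arrays as in Lrp2, while P2ry1 differed by 1.07. Of the lower genes, Shank2 and Rab17 changed little within slide 2, with -1.60 and -1.30, Anxa13 differed by -1.05, and Ggt1 and Podxl were under 2-fold, with -0.51 and -0.54. All 9 kept their sign within slide 2. This was fixed beforehand, since in each of them all high-fat diet arrays lay beyond all normal diet arrays. Within slide 2, 4 of them, P2ry1, Shank2, Rab17 and Anxa13, reached 2-fold. Of all kept probes, 2.1% were at least 2-fold higher there and 0.771% at least 2-fold lower.

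**Figure D5:**
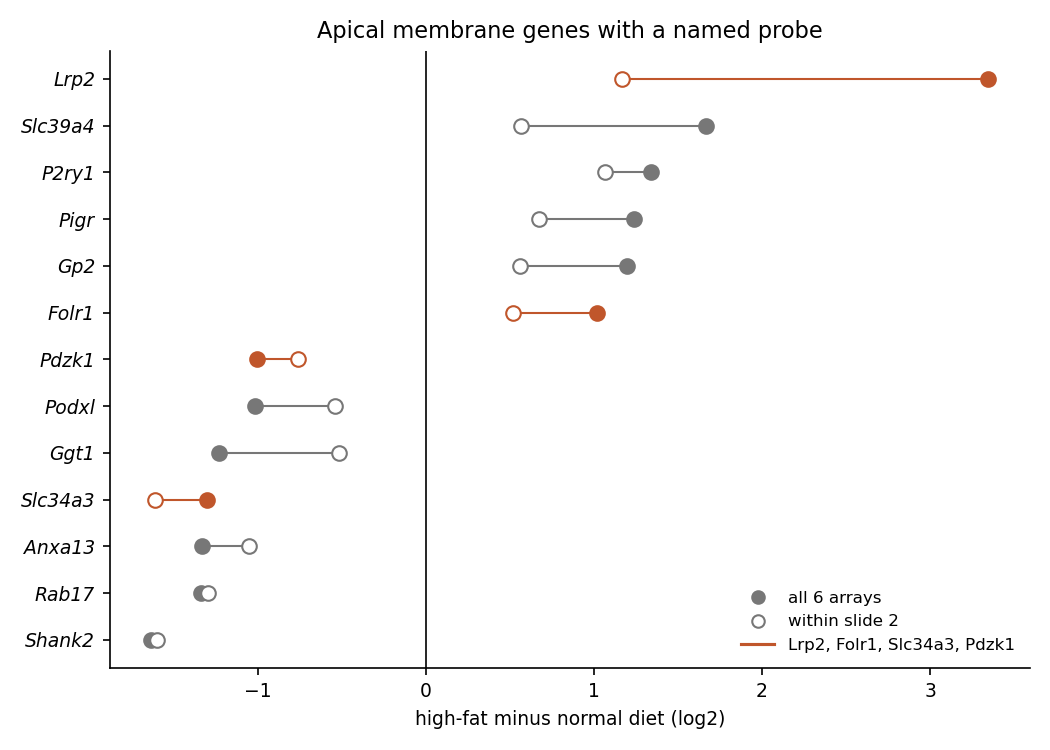
High-fat minus normal diet difference on the log2 scale (horizontal axis) of the 4 genes (orange) and of the 9 other apical membrane genes with a named probe (grey), over all 6 arrays (filled) and within slide 2 (open). The filled and open symbols are far apart in Lrp2, at 3.34 and 1.17, and nearly coincide in Shank2 and Rab17.

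Lrp1 and Sorl1, relatives of Lrp2 that are also endocytic receptors, were not analysed here, since no table used here pairs them with a probe. Of 9 genes of folate and phosphate transport, Folr1 and Slc34a3 alone had one. The partners with which megalin takes up its ligands, Cubn, Amn and Dab2, were likewise not analysed here.

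Among the 283 other named probes, those most like each gene over the 6 arrays were found by Pearson's r, and all of them come from the same list. For Lrp2 these were Slc39a4 (r = 0.997), 9130011E15Rik (0.996) and the zinc finger gene Zfp473 (0.996), each with normal diet replicate 2 well above the other normal diet arrays. Lrp2 and 9130011E15Rik were not detected on those other arrays, so these r rest in part on background values too. Slc39a4, for example, had levels of 5.68, 7.43 and 5.88 on the normal diet and of 7.86, 8.08 and 8.05 on the high-fat diet, which is the Lrp2 order on well detected spots. For Folr1 they were the taste receptor gene Tas2r125 (0.994), Gm3877 (0.977) and 9330133O14Rik (0.973), of which Tas2r125 and Gm3877 did not stand well above background with the normal diet, so that their r rests in part on background values.

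For Pdzk1 the most alike were D830044I16Rik (0.997), Prtn3, a neutrophil protease gene (0.996), and Bsn, a scaffold of the presynaptic zone (0.995). For Slc34a3 they were the water channel gene Aqp4 (0.943), B130024G19Rik (0.938) and Shank2 (0.932), so that no probe followed Slc34a3 as closely as others followed Lrp2 or Pdzk1.

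Whether epithelial cells were in these samples could not be read from the named probes. None of the markers of general epithelium, kidney proximal tubule, mesothelium, fat or parathyroid had a named probe, and neither had those of smooth muscle and endothelium, the cells that define the aorta. Of 13 marker lists, 5 had any named probe, all of them from the study's list. The thyroid genes Tg and Tshr went opposite ways. Tg differed by -1.74 (SE 0.40) and was well above background on 1 of 3 high-fat diet arrays. Tshr was well above background only with the high-fat diet. It was 1.90-fold higher there with lower normal diet values raised as for Gp2, a size that is likewise uncertain. The airway gene Bpifa1 differed by -2.94 (SE 0.69), and was well above background on 1 of 3 high-fat diet arrays. Within slide 2, Tg differed by -1.08 and Bpifa1 by -1.97.

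The skeletal muscle genes Mylk2, Tmod4 and Myom1 were lower, with differences of -1.27, -1.13 and -1.04 over all arrays and of -0.69, -0.76 and -0.96 within slide 2. The glial gene S100b was higher by 2.01, and by 1.89 within slide 2. The macrophage gene Cd68 was higher by 2.11 (SE 0.44), and within slide 2 by 2.87. All of these markers were chosen by the study for a difference between these diets, most markers of each list had no named probe, and their part in the values of the 4 genes was not tested.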

How the data were processed

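The authors deposited, per array, the output of Agilent Feature Extraction (version 10.7.1.1 in the submitters' processing notes), with a background-subtracted, detrended intensity and quality marks for each spot, and a table of log2 values of the same arrays. Their methods state quantile normalization, a filter on marks and a t-test. Labels and methods name different RNA kits. From the deposited intensity, spots with outlier marks were dropped, spots of a probe averaged, a floor of 1 set, and log2 values quantile normalized. Probes detected (at least 0.5 of spots) on all 3 arrays of a diet were kept. limma 3.58.1 (lmFit, eBayes) in R 4.3.3 gave differences and SE over all kept probes. Every SE is moderated, with the variance of a probe drawn toward that of all probes. The fit recovered 200 of 200 probes given a log2 change of 2 in simulated data of 64467 probes. The simulated probes all had the same spread and no slide difference, so this checks the code and not the sensitivity for these data. Tables were made in Python 3.11.15 with pandas 2.3.3 and numpy 2.4.6.

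Probes were named only through the probe and symbol columns of the study's mRNA list, and its other columns, the authors' fold changes and p-values, were not used. Members and lists were chosen with earlier results of these data known. The text names the 4 genes, listed genes with a named probe, and the 3 named probes most alike to each. For a probe that no array of one diet showed well above background, the fold difference over all arrays uses, per array of that diet, a raised value. It is the higher of the probe's own value and the lowest value of a probe well above background. Undetected probes can read above that lowest value, so the result is no strict bound. Nothing says more of the replicates than that they are separate aortas. The number of arrays, 3 per diet, limits the precision. Alternatives were the 75th percentile for scaling, normexp, the authors' log2 values, other spot summaries and filters, the methods' t-test, an intensity trend, a 1.5-fold limit, blocks for slide and replicate, each array left out, and, added after seeing the data, local background subtraction.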

Additional observations from a re-analysis of the deposited data

How the results depend on the processing

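All 4 genes kept their sign in the alternatives run, although leaving out an array or adding a block could not have changed it. In each gene all 3 high-fat diet arrays stayed beyond all normal diet arrays under the 6 alternatives that compute the array values anew. Of these, keeping outlier spots and taking the median over spots hardly touched the 4 genes, each read from a single unmarked spot per array. Leaving out each array gave 2.61 to 4.43 for Lrp2, 0.74 to 1.27 for Folr1, -1.17 to -0.87 for Pdzk1 and -1.57 to -1.07 for Slc34a3. With normexp and an offset of 50, the log2 differences shrank to 0.80 for Lrp2, 0.31 for Folr1, -0.25 for Pdzk1 and -0.46 for Slc34a3. The offset is added to spots whose processed intensity was between 2.61 and 87.8, so it compresses their ratios by construction. With the slide as a block they were 1.17 for Lrp2 and 0.52 for Folr1, because that fit sets the high-fat diet arrays against normal diet replicate 2 alone.

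Counts of probes by both criteria, 1374 higher and 535 lower, ranged from 722 to 4273 and from 344 to 1604 with an array left out, both at their highest in the absence of normal diet replicate 2, which leaves 1 diet per slide. They were 204 and 117 with normexp, 359 and 329 with the methods' t-test, 3339 and 2760 at 1.5-fold. The lower count was 265 with the slide as a block, 904 with probes detected on at least 1 array and 1275 with no filter. The cause of the change under the t-test was not tested.

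Labels number the replicates 1 to 3 in both diets, but nothing says that a number pairs the mice, and the deviations of same-numbered arrays from their group means correlated at -0.26, -0.20 and -0.03. With the replicate number as a block the differences were 3.34 (SE 0.63) for Lrp2, 1.02 (SE 0.31) for Folr1, -1.01 (SE 0.25) for Pdzk1 and -1.30 (SE 0.33) for Slc34a3, and the counts 1608 and 555. Weak signal limits Lrp2, whose spot on slide 1 was not well above background, so that its values against those arrays, the 4.43 included, are no measured sizes. It limits Folr1 as well, whose spot was not well above background on normal diet replicate 3.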
